A study of Homo sapiens with 8 samples.

Results

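JunD peaks that lay between genes but within reach of a gene start were examined in BEAS-2B, an established line of virus-transformed human bronchial epithelial cells. A peak was taken if it was on chromosomes 1 to 22, if its middle lay in no gene span of the expression table and it overlapped no exon, and if the nearest gene start was more than 1 kb and at most 50 kb away. The rule used the positions of peaks and genes and no level or change, although the genes placed are those of the expression table, all of which have reads in these libraries, and it took 12024 of the 61360 peaks in the authors' list. For chromatin immunoprecipitation (ChIP), cells had 24 h of 8% cigarette smoke extract (CSE), and 1 library made with a JunD antibody was compared with 1 input library, so no value of a peak has a replicate. For RNA, cells carried either a pcDNA3.1 plasmid with JunD or the empty vector for 12 h and then had CSE for 24 h, with 3 libraries in each group. All groups were therefore exposed to CSE, the ChIP cells have no transfection stated, and no CSE concentration is stated for the RNA cells. Nothing in the labels ties the RNA libraries to separate cultures, and the p-values below therefore reflect only the spread between libraries, which could be technical.

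JunD is a subunit of AP-1, a family of paired leucine-zipper proteins in which a Jun protein joins a Fos, another Jun or an ATF partner. The pair binds a short palindrome, written TGAGTCA on one strand and TGACTCA on the other, and the related CRE site TGACGTCA. AP-1 is known for sitting at enhancers away from promoters and for the control of cytokine, matrix protease and stress genes in airway epithelium. A peak between genes has no fixed target, and the nearest start is used here only as a positional label.

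The 250 bases before a RefSeq gene start (GRCh38.p14) were the only peak sequence at hand, and 68 of the 12024 peaks (0.566%) overlapped such a stretch, at 70 starts. Of these starts 27 belonged to protein-coding genes. A RefSeq start can lie inside such a peak, since the expression table, and with it the rule, holds only genes with reads in these libraries. It can also belong to a gene that the table holds with a different start, as at DMBX1, PLEKHG7, MEIS3 and GRIK2. The stretches shown were chosen after they had been seen. The first 3 hold an AP-1 heptamer, marked by capitals, and the other two are from the 7 that a peak covered over their whole length. Each is written 5′ to 3′ on the strand of its RefSeq gene and is limited to the bases inside the peak.
LOC124902719, chr11:76769756-76770005, minus strand: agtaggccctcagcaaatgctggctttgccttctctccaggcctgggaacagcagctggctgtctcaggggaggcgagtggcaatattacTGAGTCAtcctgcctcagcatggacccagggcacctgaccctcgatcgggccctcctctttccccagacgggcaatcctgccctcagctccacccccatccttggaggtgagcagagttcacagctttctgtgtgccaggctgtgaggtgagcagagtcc
KRTAP4-6, chr17:41140546-41140794, minus strand: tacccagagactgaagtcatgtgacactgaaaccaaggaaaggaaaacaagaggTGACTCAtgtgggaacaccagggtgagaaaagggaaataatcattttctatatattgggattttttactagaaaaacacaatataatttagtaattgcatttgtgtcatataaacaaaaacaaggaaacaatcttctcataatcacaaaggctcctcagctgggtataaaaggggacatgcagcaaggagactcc
LOC105370034, chr12:121686885-121687089, plus strand: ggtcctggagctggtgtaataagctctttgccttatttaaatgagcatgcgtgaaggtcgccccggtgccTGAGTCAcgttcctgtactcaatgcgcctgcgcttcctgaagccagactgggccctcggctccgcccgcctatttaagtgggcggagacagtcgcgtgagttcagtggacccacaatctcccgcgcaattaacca
LOC105373215, chr1:235892035-235892284, plus strand: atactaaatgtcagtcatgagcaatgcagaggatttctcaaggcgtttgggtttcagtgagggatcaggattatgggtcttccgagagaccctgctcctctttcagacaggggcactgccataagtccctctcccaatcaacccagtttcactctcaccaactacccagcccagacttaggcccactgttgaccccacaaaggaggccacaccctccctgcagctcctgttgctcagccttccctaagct
IFNL2, chr19:39268146-39268395, plus strand: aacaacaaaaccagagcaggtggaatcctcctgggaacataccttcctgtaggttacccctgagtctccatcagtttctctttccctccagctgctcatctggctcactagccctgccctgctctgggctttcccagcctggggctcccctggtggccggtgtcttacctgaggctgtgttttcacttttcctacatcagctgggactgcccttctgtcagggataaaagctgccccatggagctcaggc

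The peak over the first stretch had a fold enrichment of 3.56 and a pileup of 7, and its nearest table gene was RP11-21L23.4, 1.62 kb away. The peak at KRTAP4-6, a hair keratin-associated protein gene, had a fold enrichment of 2.78, and the one at LOC105370034 had 2.18. The stretch without a heptamer at LOC105373215 lay in a peak of higher fold enrichment, 4.37, at 8.58 kb from the start of LYST, a lysosome trafficking gene. The peak at IFNL2, which encodes a type III interferon, had a fold enrichment of 3.36 and stood 28.0 kb from the nearest table gene, IFNL1. Among the 70 stretches, 3 held TGAGTCA or TGACTCA on either strand, or 3.19 sites per 10 kb of sequence, against 1.75 per 10 kb in the same 250 bases of all 33554 RefSeq windows on chromosomes 1 to 22. Of those windows 4.18% held the heptamer. TGACGTCA, which cannot hold the heptamer, was in 0 of the 70 stretches, which allows a share of up to 4.29%, and in 1.65% of all windows. The stretches are cut to the bases inside peaks, 9414 in all, and some overlap one another. Their shares are therefore not directly comparable with those of whole windows. With 3 sites the density of the stretches has wide counting error, and the sequence of the other peaks was not analysed here.

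Peaks between genes and near a start made up 20.04% of the 59994 peaks on chromosomes 1 to 22 (95% exact binomial interval 19.7 to 20.4, counting error only). Their values were low and closely alike. Fold enrichment, the authors' ratio of the JunD library over local background, had a median of 3.12 and ran from 2.09 to 6.87. The pileup, the number of fragments at the summit, had a median of 5, and 9973 peaks (82.9%) had a pileup of 4 to 6. Width had a median of 255 bp and was at the list's least value in 5862 peaks (48.8%). Only 370 distinct fold enrichments occurred, and the commonest pair, a fold enrichment of 3.12 with a pileup of 4, was shared by 722 peaks. The authors' q-value was below 0.05 in 335 peaks (2.79%, interval 2.5 to 3.1) and below 0.1 in 1224 (10.2%). Peaks within 1 kb of a start had q below 0.05 in 5.55% (interval 4.50 to 6.75), peaks in introns in 2.39% (2.20 to 2.59) and peaks between genes beyond 50 kb in 2.31% (2.1 to 2.55). A pileup of at least 10 was reached by 0.590% of the near-gene peaks and by 8.35% of those within 1 kb of a start. At the edges of the rule the values were alike: the median fold enrichment was 3.12 in the 39 peaks at 1 to 1.1 kb and in the 35 between genes at 0.9 to 1 kb, and it was 2.93 in the 17 peaks just inside 50 kb and 3.10 in the 14 just outside.

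**Figure D1:**
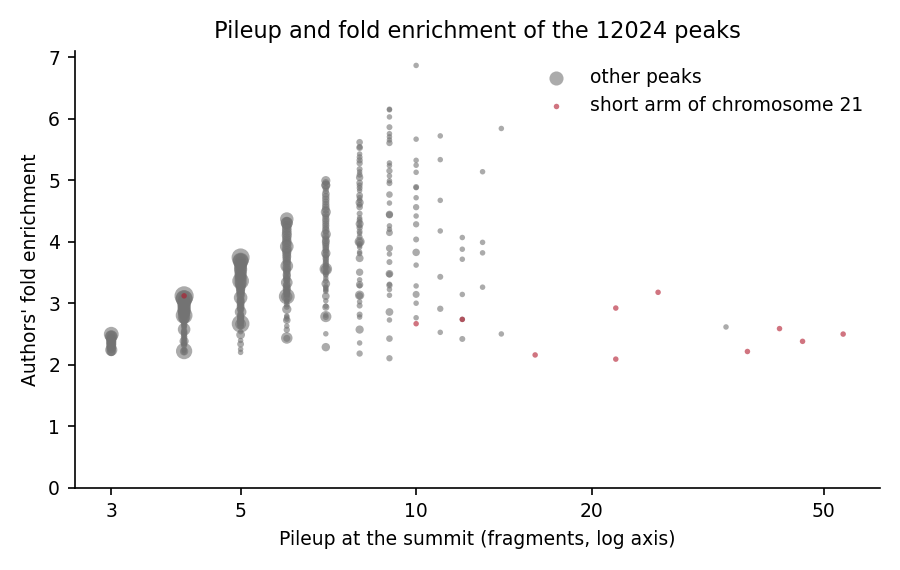
Authors' fold enrichment (ratio, vertical axis) against pileup at the summit (fragments, horizontal log axis) for the 12024 peaks, with point area growing with the number of peaks at the same pair of values. Most peaks sit at a pileup of 4 to 6, fold enrichment reaches 6.87 at a pileup of 10, and the peaks of highest pileup, most of them on the short arm of chromosome 21, have fold enrichments between 2.09 and 3.18.

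The highest pileups came from one place. On the short arm of chromosome 21, between 8239143 and 8464490, 11 peaks had pileups of 4 to 54 and fold enrichments of 2.09 to 3.18. Of the 9 near-gene peaks with a pileup of at least 16, 8 were there. The peak of pileup 54, at chr21:8437178-8437591, overlapped RNA18SN1 and RNA45SN1, ribosomal RNA genes of RefSeq, and 2 others overlapped the CDC27 pseudogenes CDC27P10 (pileup 42) and CDC27P9 (pileup 26). Ribosomal RNA genes and CDC27 pseudogenes have many near-identical copies, so reads could belong to other copies. Their nearest table gene was most often CH507-513H4.3, whose RPKM was 5.90, 9.09 and 13.9 with JunD, against 8.49, 5.71 and 3.27 with the empty vector. Those groups overlapped (log2 difference 0.69 ± 0.39 SE, adjusted p = 0.186 by limma).

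The 10 peaks of highest fold enrichment mostly had silent neighbours. At chr6:15894439-15894906 the fold enrichment was 6.87 with q = 1.42e-05 and a pileup of 10, and the nearest gene was the pseudogene ARPC3P5, 40.1 kb away with a mean of 0.028 RPKM. RPKM is reads per kilobase of exon, scaled to the assigned reads of each library, and a gene is called expressed here at a mean of at least 1 over the 6 RNA libraries. The next peaks, of fold enrichment 6.16 and 6.15, were nearest to the pseudogenes PFN1P3 and BTF3P7, with means of 0.0606 and 0.059 RPKM. The only expressed neighbour of the 10 was MSI2, an RNA-binding protein of progenitor cells, with 1.28 RPKM. Its peak at chr17:57248928-57249345 lay 6.71 kb upstream with a fold enrichment of 5.86 (q = 0.000692). The other 6 peaks had neighbours, among them POTEG, C17orf99 and LINC01140, with means from 0.00113 to 0.0997 RPKM.

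The nearest genes were compared with those found when all peaks were moved by 20, 50 or 100 kb in either direction, which gives 6 shifted sets put through the same rule. The shifts keep the number and spacing of peaks and are a description of position, with no test. The shifted sets held 11386 to 11941 near-gene places, slightly fewer than the 12024 peaks. The 12024 peaks had 7042 distinct nearest genes, and 3042 of these were nearest to 2 or more peaks, against 2776 to 2986 in the shifted sets. The side of the gene was the same in both: 71.9% of the peaks lay upstream of the nearest start, against 71.4 to 72.0% of shifted places, and the rest lay beyond the end of the gene. Of the nearest genes, 5275 matched RefSeq by symbol or synonym, and 3883 (55.1%) were protein-coding. The middle of 3373 peaks (28.1%) lay in a RefSeq gene that the expression table does not place there, against 26.8 to 27.6% of shifted places.

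Of the 5 genes named as nearest to the most peaks, 4 were below 1 RPKM. The other was CH507-513H4.3, described above, with 8 peaks and a mean of 7.73 RPKM. NPM1P42, a nucleophosmin pseudogene, and RP11-443C10.1 each had 10 peaks, with means of 0.0108 and 0.323 RPKM. The 10 peaks around NPM1P42 spanned chr15:72854368-72934042 with fold enrichments of 2.22 to 4.37. OLFM1, which encodes a secreted glycoprotein of the nervous system, had 8 peaks and was listed at 0 in 5 of the 6 libraries. BCAR1P1, with 8 peaks, had 0.138 RPKM.

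Close to the starts of expressed genes there were fewer peaks than at shifted places. Within 1 to 5 kb of a start, 396 peaks had an expressed nearest gene, against 612 to 658 in the shifted sets, a ratio of 0.623 to their mean. The same ratio was 0.983 for unexpressed nearest genes, with 946 peaks against 932 to 1020. The difference was steepest next to the gene. At 1 to 2 kb there were 94 peaks by expressed genes against 157 to 193, and at 5 to 6 kb there were 140 against 123 to 160. Farther out, both kinds of gene had slightly more peaks than shifted places. For expressed genes there were 720 against 603 to 707 at 5 to 10 kb, 1201 against 1003 to 1130 at 10 to 20 kb and 1976 against 1858 to 1941 at 20 to 50 kb. For unexpressed genes there were 1206 against 1004 to 1147 at 5 to 10 kb and 3681 against 3495 to 3673 at 20 to 50 kb, while 1898 at 10 to 20 kb lay inside the shifted range of 1739 to 1917. Within 1 kb of a start, outside the rule, peaks of any class were in slight excess at both kinds of gene, with ratios of 1.20 at expressed and 1.15 at unexpressed genes.

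**Figure D2:**
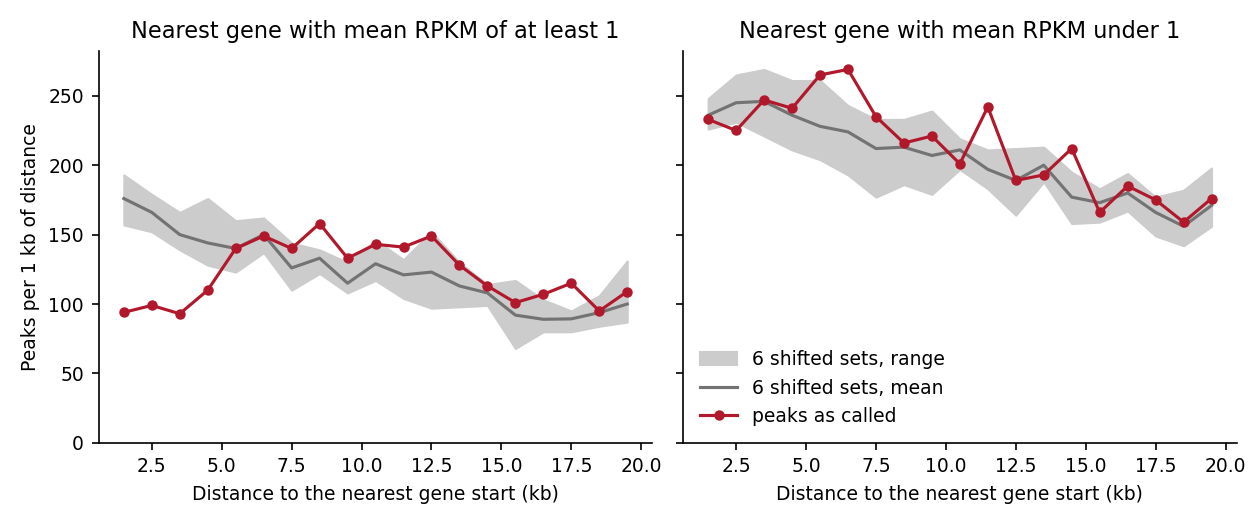
Number of peaks in each 1 kb of distance (vertical axis) from 1 to 20 kb from the nearest gene start (horizontal axis, kb), for nearest genes with a mean of at least 1 RPKM (left) and under 1 RPKM (right). The points are the peaks as called, and the band and grey line are the range and mean of the 6 shifted sets. On the left the 94 peaks at 1 to 2 kb lie below the band of 157 to 193 and the points join the band by 5 to 6 kb, while on the right the points stay in or next to the band over the first 5 kb.

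The gap was as deep at moderate as at high expression. At 1 to 5 kb the ratio to the shifted mean was 1.04 for genes under 0.1 RPKM, 0.864 from 0.1 to under 1 RPKM, 0.621 from 1 to under 10 RPKM and 0.627 at 10 RPKM or more. Genes that rose with JunD had a ratio of 0.684, genes that fell 0.650, and tested genes that were not called 0.577. Among the peaks between genes the gap lay on the upstream side, with 362 peaks against 575 to 620. Gene bodies are outside the rule, so its only downstream places are beyond the ends of short genes, with 34 against 28 to 47. Peaks in introns at the same distance showed the gap too, with 740 against 1061 to 1122 by expressed genes (ratio 0.679). The gap is therefore not particular to the space between genes. Peaks with a fold enrichment of at least 4 gave 33 against 46 to 72, and those with q below 0.1 gave 46 against 49 to 84. By unexpressed genes there were 79 peaks with a fold enrichment of at least 4, inside the shifted range of 78 to 96, but 85 with q below 0.1, under its range of 91 to 104. At q below 0.05 both kinds of gene lay under their ranges, with 12 against 14 to 24 by expressed and 21 against 25 to 30 by unexpressed genes. As a share of distinct nearest genes within 5 kb, 30.4% were expressed (n = 1269 genes), against 38.0 to 41.6% at shifted places. The ChIP data have no replicate, and no test was made of the gap.

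**Figure D3:**
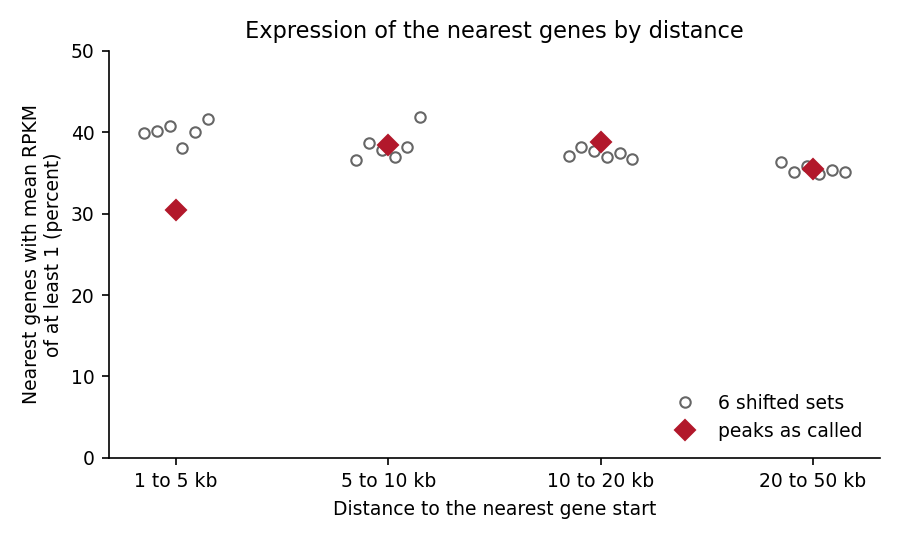
Percent of distinct nearest genes with a mean of at least 1 RPKM (vertical axis) in 4 bins of distance to the start (horizontal axis). Diamonds are the peaks as called and open circles the 6 shifted sets. In the bin of 1 to 5 kb the value of 30.4% lies below all 6 shifted sets (38.0 to 41.6%). In the bin of 10 to 20 kb 38.8% lies just above them (36.7 to 38.2%). In the bins of 5 to 10 kb and 20 to 50 kb, 38.4% and 35.5% lie among them.

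Over the whole range of distance, 37.4% of the 7042 nearest genes were expressed, against 37.9 to 38.6% at shifted places and 45.5% of all genes of the table with 1 start on these chromosomes. The nearest genes of upstream peaks were expressed in 41.3% (shifted 42 to 43.5%), and those of peaks beyond the gene's end in 21.6% (shifted 20.3 to 22.1%). Among expressed nearest genes, the median was 5.79 RPKM, against 5.74 to 6.12 RPKM. Peaks with q below 0.05 had an expressed neighbour in 33.4% of 326 genes, against 30.9 to 41.3%.

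Change of the nearest genes with JunD was then set against that of all genes. JUND, the transfected gene, had 70.3, 63.5 and 103 RPKM with JunD, and in the empty-vector libraries it had 13.2, 10.5 and 10.6 RPKM, and the groups did not overlap. JunD replicate 3 stood apart on the second principal component (-22.2, against 11.7 and 10.8 for the other JunD libraries). Without it 910 of 2617 tested nearest genes rose (34.8%) and 566 fell (21.6%). Of all 13259 genes tested without it, 4322 rose and 2651 fell. Epithelial keratins were high, with means of 146 RPKM for KRT8, 81.6 for KRT18 and 139 for KRT7, and all 3 fell with JunD, by 0.65 ± 0.05, 0.38 ± 0.09 and 0.29 ± 0.07 on the log2 scale (± SE, adjusted p = 0.000145, 0.0147 and 0.0183 by limma). KRT5, KRT19, EPCAM and CDH1 were at or below 0.165 RPKM. Of markers of other cells, PTPRC, PECAM1, VWF and MUC5AC were at or below 0.0166 RPKM and SCGB1A1 was at 0.394 RPKM. Both others were expressed and changed. CD68, a lysosomal protein used as a macrophage marker, was at 174 ± 14.9 RPKM with JunD and 38.7 ± 2.17 RPKM with the empty vector (SD, n = 3 each, adjusted p = 6.5e-06 by limma). PDGFRB, a receptor used as a marker of fibroblasts and mural cells, was at 2.70 ± 0.298 RPKM with JunD and 5.65 ± 0.477 RPKM with the empty vector (adjusted p = 0.000422 by limma). Whether these marker changes bear on the genes below was not tested, and in these bulk samples fewer cells of a type and less RNA per cell cannot be told apart.

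Of the 2635 nearest genes with enough RPKM to be tested, 876 rose with JunD (33.2%) and 461 fell (17.5%), at an adjusted p below 0.05 by limma. Over all 13379 tested genes, 31.5% were called higher and 14.7% lower. Genes next to shifted places were called higher in 32.2 to 34.0% and lower in 15.8 to 17.3%, so the share that rose lay inside the range of the shifted sets and the share that fell just above it. The median log2 difference was 0.104 for the nearest genes and 0.0994 for all tested genes. The balance of rises and falls depends on the scaling. With median-of-ratios scaling 630 nearest genes rose and 661 fell, and with quantile normalization 572 rose and 683 fell. Over all 13379 tested genes the counts were 2878 and 3143, and 2657 and 3244. The median of all tested genes moved from 0.0994 to -0.0165 and -0.0339. Among the peaks at 1 to 5 kb, 34.5% of 386 tested genes rose and 17.6% fell, against 29.4 to 34.6% and 14.6 to 20.6% at shifted places.

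The strongest peaks were then taken alone. With q below 0.05, 42 of 109 tested nearest genes rose (38.5%) and 12 fell (11%), against 29.7 to 36.9% and 12.1 to 22.6% at shifted places. With a fold enrichment of at least 4 the shares were 33.4% of 371 genes higher and 15.9% lower, inside the shifted ranges of 28.6 to 33.8% and 15.6 to 20.2%. The set of q below 0.05 is small, 1 gene being close to 1% of it, and no test was made of its difference.

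**Figure D4:**
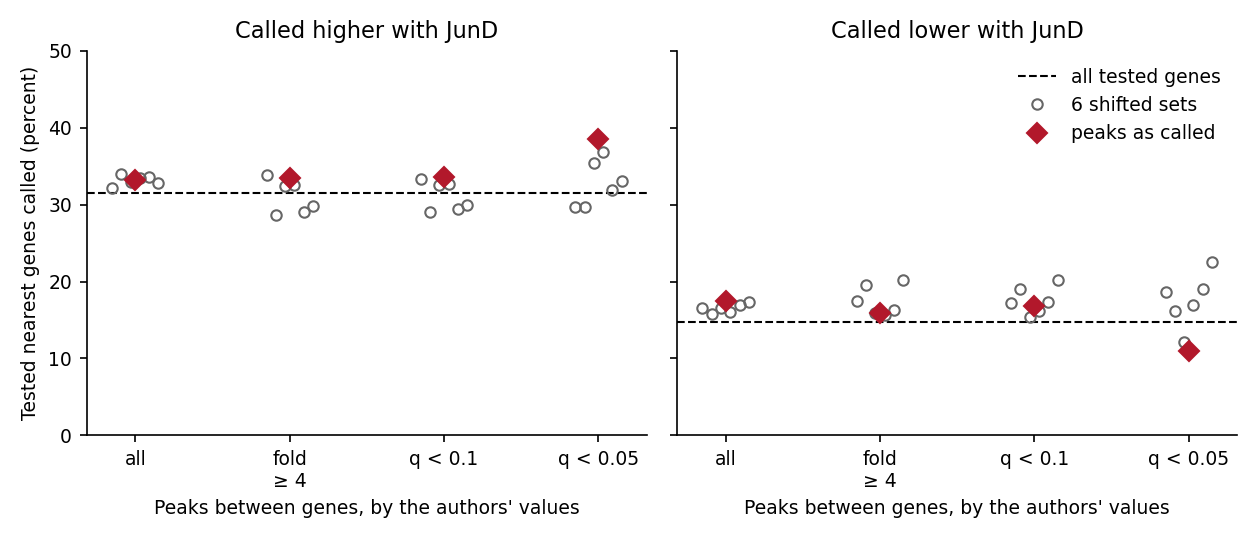
Percent of tested nearest genes called higher (left) and lower (right) with JunD (vertical axes), for all peaks between genes near a start and for subsets by the authors' fold enrichment or q (horizontal axis). Diamonds are the peaks as called, open circles the 6 shifted sets and the dashed line all tested genes (31.5% higher, 14.7% lower). The values for all peaks, 33.2% and 17.5%, lie at or next to the shifted sets, and at q below 0.05 they are 38.5% and 11%.

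Of the called genes next to peaks with q below 0.05, the 10 with the highest fold enrichment at their peak changed by less than 1 on the log2 scale, whereas IL1B, next to a weaker such peak and described below, changed by more. LINC00839, a long noncoding RNA, had 14.9, 14.1 and 14.1 RPKM with JunD, and in the empty-vector libraries it had 8.76, 8.51 and 8.31, and its peak at chr10:42512038-42512443 had a fold enrichment of 5.62 (q = 0.00215). Its groups did not overlap, and it rose by 0.72 ± 0.05 (log2 difference ± SE, on the log2(RPKM + 0.5) scale, adjusted p = 0.000131 by limma). MSI2 had 0.935, 0.971 and 0.925 RPKM with JunD, and in the empty-vector libraries it had 1.58, 1.63 and 1.62. It fell by 0.55 ± 0.08 (adjusted p = 0.00166 by limma), and 4 peaks lay 6.71 to 48.1 kb upstream of it. ZCCHC2, a zinc finger gene, rose by 0.51 ± 0.10, EGFL7, a secreted factor of endothelium, by 0.51 ± 0.12 and SUSD6, a p53 target, by 0.41 ± 0.11, while ANAPC7, a subunit of the anaphase-promoting complex, fell by 0.26 ± 0.05. The call of ANAPC7 was lost with the replicate number as a block (adjusted p = 0.0512 by limma) and that of ZCCHC2 with quantile normalization (adjusted p = 0.0623). The calls of EGFL7, SUSD6, the pseudogene SUZ12P1 (0.23 ± 0.07) and RPP40 (-0.30 ± 0.10), a ribonuclease P subunit, were lost without a single library: EGFL7 without empty-vector replicate 2, SUSD6 without empty-vector replicate 1 or 3, SUZ12P1 in 5 of the 6 omissions and RPP40 in 4 of them. HNRNPA1P39 fell by 0.71 ± 0.09 but, like SUZ12P1, is a copy of a transcribed gene, and its reads may belong to the parent. RP11-54H7.4 fell by 0.38 ± 0.06.

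The largest rises beside a peak were mostly those of interferon-stimulated genes. IFI44, an interferon-induced antiviral protein, had 43.3, 45.0 and 47.0 RPKM with JunD, and in the empty-vector libraries it had 0.415, 0.514 and 0.412. It rose by 5.59 ± 0.07 (adjusted p = 7.13e-08 by limma), and its one peak, at chr1:78672890-78673140, lay 23.2 kb from the start, beyond the end, with a fold enrichment of 3.12, q = 0.348 and a pileup of 4. OASL, of the oligoadenylate synthetase family, had 30.2, 24.8 and 29.4 RPKM against 0.112, 0.173 and 0.207, and rose by 5.43 ± 0.10. MX2, an antiviral GTPase with 2 upstream peaks, rose by 5.14 ± 0.05, IFI44L (at most 0.0219 RPKM with the empty vector) by 4.29 ± 0.11, SAMD9L by 4.04 ± 0.10 and RTP4 by 3.23 ± 0.09. The rule that chose these 6 genes required groups that do not overlap. The lowest q among the peaks of these genes was 0.144, at MX2. XAF1, a pro-apoptotic interferon target, had 5.60, 4.95 and 3.99 RPKM with JunD and was listed at 0 in all 3 empty-vector libraries, with 4 peaks upstream at 1.29 to 47.5 kb. Other genes cover 38.3% of its exon length, and the labels state no strand setting for the counting. The same limit holds for other changed genes named here. The shared exon length was 20.7% in IL6, 19.9% in SERPINB2, 14.3% in MEST, 11.9% in FGF2 and 11.4% in ANAPC7. Of the 46 interferon-stimulated genes in the list, 10 were nearest to a peak, against 11 to 18 in the shifted sets. All 9 of the tested ones rose (median 4.04), as did all 45 tested genes of the list (median 3.52).

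**Figure D5:**
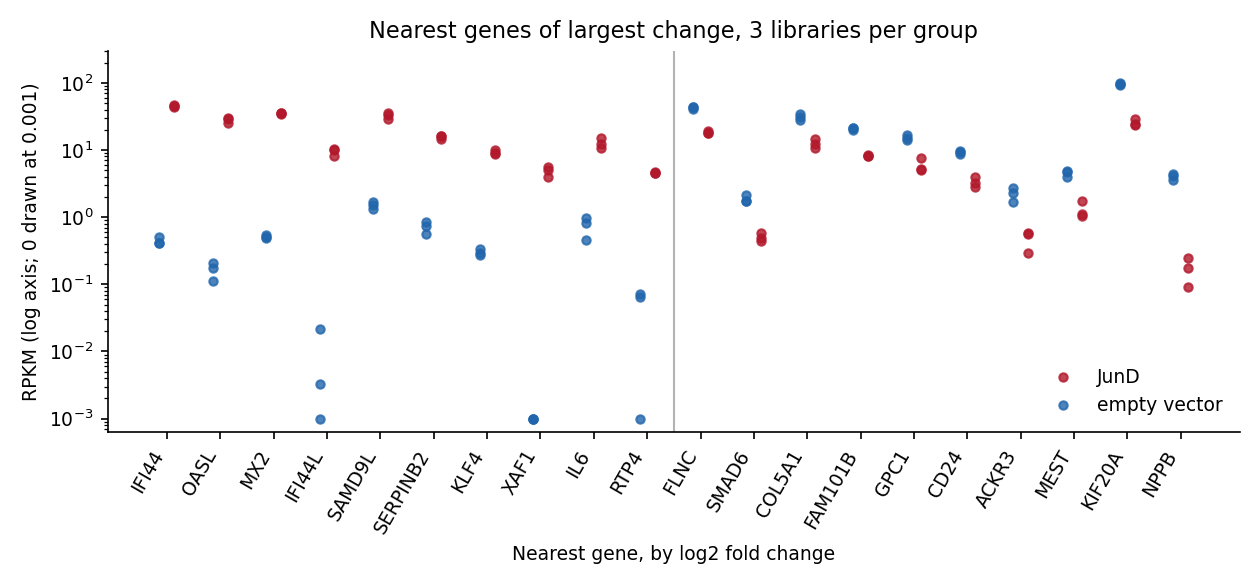
RPKM (vertical log axis, 0 drawn at 0.001) in each of the 3 JunD and 3 empty-vector libraries for the 10 nearest genes of largest rise (left of the line) and of largest fall (right). The rule that chose the 20 genes required groups that do not overlap, as for IL6 with 10.7 to 14.9 RPKM against 0.460 to 0.981, and NPPB with 0.0902 to 0.244 against 3.55 to 4.39.

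Among regulators, BATF2, a leucine-zipper partner of Jun proteins induced by interferon, had 3.76, 3.63 and 4.44 RPKM with JunD, and in the empty-vector libraries it had 0.139, 0.273 and 0.197. It rose by 2.66 ± 0.11 (adjusted p = 1.3e-05 by limma), with 1 peak 10.3 kb from its start. BATF3 rose by 0.60 ± 0.14 and FOSL2, a Fos-family subunit, by 0.25 ± 0.07, the latter not called without any 1 of the empty-vector libraries or with median-of-ratios or quantile scaling. All 3 tested AP-1 subunit and partner genes next to a peak rose (11 of 14 in the whole list). BATF2 passed the filter of 1 RPKM only through its JunD libraries, so its direction was fixed, unlike that of BATF3 and FOSL2. FOS and MAF were also nearest to a peak but were too low to test. KLF4, a zinc finger regulator of epithelial differentiation, had 9.12, 8.59 and 9.91 RPKM against 0.277, 0.295 and 0.336, and rose by 3.59 ± 0.08. Its 3 upstream peaks, at 6.40, 13.8 and 39.3 kb, had fold enrichments of 3.02 to 3.09. Of the 8 immediate early and ERK feedback genes next to a peak, 6 rose and 1 fell, against 16 and 1 of all 20 tested genes of the list.

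Cytokine genes had peaks but few were expressed. Of 23 such genes, 13 were nearest to a peak (7 to 15 in the shifted sets), and the 4 that could be tested rose (7 of 9 in the whole list). IL6 and IL1B were under 1 RPKM with the empty vector and passed the filter only through their JunD libraries. Their direction was thus fixed, which was not so for CSF1. IL6, a central inflammatory cytokine, had 12.2, 10.7 and 14.9 RPKM with JunD, and in the empty-vector libraries it had 0.981, 0.832 and 0.460. It rose by 3.39 ± 0.19 (adjusted p = 3.97e-05 by limma), and its upstream peak at chr7:22718612-22718862, 7.15 kb away, had a fold enrichment of 4.19, q = 0.0721 and a pileup of 7. IL1B rose by 1.67 ± 0.12, from 0.726 ± 0.165 to 3.38 ± 0.204 RPKM (SD, n = 3 each), and had a peak 1.71 kb upstream with a fold enrichment of 4.49 (q = 0.0491). CSF1, a macrophage growth factor, rose by 0.87 ± 0.10. CXCL8, CCL2, CSF2 and TSLP had a peak but a mean below 1 RPKM.

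Protease and plasminogen genes were nearest to peaks in 12 of 21 cases, against 7 to 10 in the shifted sets. Of the 9 tested, 5 rose and 2 fell (11 and 2 of all 15 tested genes of the list). SERPINB2, an inhibitor of plasminogen activators, had 14.6, 16.1 and 16.4 RPKM with JunD, and in the empty-vector libraries it had 0.554, 0.848 and 0.733. It rose by 3.75 ± 0.10 (adjusted p = 1.74e-06 by limma), and 4 peaks lay 2.02 to 20.1 kb upstream, the closest at chr18:63869417-63869926 with a fold enrichment of 3.92 (q = 0.114). ADAMTS1, a secreted metalloprotease, rose by 1.35 ± 0.06 and had 5 peaks at 10.1 to 31.4 kb, and MMP2, a gelatinase with 2 upstream peaks, fell by 0.91 ± 0.05.

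Most tested stress and growth factor genes next to peaks rose. All 6 tested genes of the integrated stress response rose (19 of 22 in the whole list), among them NUPR1, a stress-induced chromatin protein, by 2.89 ± 0.07 and ASNS, asparagine synthetase, by 1.62 ± 0.07. Of the 6 tested p53 targets 5 rose (14 of 17 in the whole list), among them GADD45A by 1.77 ± 0.05. All 3 tested genes of the growth factor and receptor list rose, against 6 higher and 1 lower of 10 tested in the whole list. The other neighbours from that list were too low to test. VEGFA, the vascular growth factor, rose by 1.87 ± 0.06, with a peak 7.06 kb upstream, and FGF2 rose by 1.36 ± 0.08. TRAF1, an NF-kB target, rose from 0.726 ± 0.0105 to 5.33 ± 0.470 RPKM (SD, n = 3 each, adjusted p = 5.79e-06 by limma). Of the 3 tested NF-kB response genes next to a peak, 2 rose (14 of 19 in the whole list). TRAF1 was one of them and passed the filter of 1 RPKM only through its JunD libraries, so its direction was fixed.

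The largest falls beside a peak included secreted, mitotic and matrix genes. NPPB, the natriuretic peptide B gene, had 0.174, 0.0902 and 0.244 RPKM with JunD, and in the empty-vector libraries it had 4.39, 4.14 and 3.55, and it fell by 2.76 ± 0.12 (adjusted p = 1.54e-05 by limma). Its peak lay 15.8 kb upstream with a fold enrichment of 3.36. KIF20A, a kinesin of cell division, had 28.5, 24.1 and 23.5 RPKM against 93.5, 98.6 and 95.1, and fell by 1.90 ± 0.08. Its one peak lay 39.4 kb upstream, with a fold enrichment of 3.0 and q = 0.348. That peak covered the RefSeq start of another gene, NME5. The rule that chose NPPB and KIF20A required groups that do not overlap. The log2 difference was -1.51 ± 0.16 for the imprinted gene MEST, -1.49 ± 0.18 for the chemokine receptor ACKR3, -1.35 ± 0.11 for the surface protein CD24, -1.32 ± 0.15 for the proteoglycan GPC1 and -1.28 ± 0.05 for FAM101B, all of them called. SMAD6, an inhibitor of BMP signalling, fell by 1.24 ± 0.11, and without empty-vector replicate 3 its mean was under 1 RPKM, so it was not tested. COL5A1, a fibrillar collagen chain, had 12.3, 10.6 and 14.6 RPKM against 33.9, 27.8 and 30.7 and fell by 1.28 ± 0.13, with 3 peaks 22.5 to 38.9 kb upstream. FLNC, an actin crosslinker, fell by 1.19 ± 0.06 with a peak 3.47 kb upstream.

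Of 7 mitotic genes next to a peak, 0 rose and 5 fell by limma's adjusted p (0 and 25 of all 30 tested genes of the list), with the same 0 and 5 of the 7 at an unadjusted p under 0.05, among them TOP2A (-0.88 ± 0.11), a DNA topoisomerase, and BUB1 (-0.69 ± 0.06). BUB1, a spindle checkpoint kinase, had a peak 16.7 kb upstream with a fold enrichment of 4.49 (q = 0.0491). NRF2 and xenobiotic response genes were nearest to a peak in 12 of 25 cases (7 to 12 in the shifted sets). Of 9 tested, 0 rose and 4 fell by limma's adjusted p, as at an unadjusted p under 0.05 (4 rose and 7 fell of all 21 tested genes of the list), among them EPHX1, a detoxifying epoxide hydrolase (-0.83 ± 0.07), the transketolase gene TKT (-0.74 ± 0.08) and the aldose reductase gene AKR1B1 (-0.69 ± 0.07). Of contractile genes 3 of 4 fell (9 of 13 in the whole list) and 1 rose, SRF, the transcription factor that drives them, by 0.32 ± 0.06. Matrix and mesenchymal genes were nearest to a peak in 3 of 24 cases and epithelial junction genes in 4 of 20, against 5 to 9 in the shifted sets for both. Markers of leukocytes, endothelium, fibroblasts and airway secretory cells were nearest to a peak in 8 of 15 cases (5 to 10 in the shifted sets), and all 8 were too low to test.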

How the data were processed

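Expression came from 3 JunD and 3 empty-vector libraries and peaks from 1 JunD and 1 input ChIP library. The authors deposited RPKM values with exon positions. The authors' peak list gives, per the file headers, fold enrichment (a ratio), p-values and q-values, and a pileup signal. The submitters' processing notes list, without roles or order, bedtools 2.25.0, MACS2 2.1.1, STAR 2.5.3a, Trimmomatic 0.36, featureCounts and Subread 1.5.1. They name the build GRCh38. Assigned reads, recovered from the steps of the RPKM values, were 15967955 to 29617655 per library. ChIP depth is unknown.

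For genes with a mean of at least 1 RPKM, limma 3.58.1 (R 4.3.3) gave the tests (intensity trend, log2(RPKM + 0.5), two-sided, Benjamini-Hochberg over 13379 genes, threshold 0.05). This scale understates changes of low genes. The filter took the mean over all 6 libraries, so a gene under 1 RPKM in one group could enter only through the other. The direction of such a gene was fixed by the filter. KLF4 and SERPINB2 entered only through the JunD libraries, and NPPB, ACKR3, SMAD6 and MSI2 only through the empty-vector libraries. The script was tested on simulated data. Gene spans had 1 chromosome and strand and at most 2500000 bp. All 29534 genes of the table have reads in these libraries, so what counts as between genes, and which start is nearest, depends on detection in the RNA data. Peaks were moved by 20, 50 and 100 kb both ways. No genome was used, so the share of all peaks with an AP-1 site was not analysed here. Of 16 cell markers 14 had values.

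The members, the 15 gene lists and the rule for named genes were chosen with earlier results of these data known. The rule takes the neighbours of the 10 strongest peaks, the 10 largest called changes each way with groups that do not overlap and no clone name, up to 10 called neighbours of peaks with q below 0.05 by fold enrichment, up to 3 genes per list by p, and the 5 genes with most peaks. Genes of the lists named as too low to test fall outside it and were named after their values were seen, as were the sequences shown.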

Additional observations from a re-analysis of the deposited data

How the results depend on the processing

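Shifted places were not screened for assembly gaps or mappability, and 1 ChIP library leaves the peaks without replicate error. Pileups of 4 to 6 fragments limit the precision of single peaks. Leaving out each RNA library in turn gave 685 to 910 nearest genes called higher (876 with all) and 318 to 566 lower (461). Over all tested genes those counts were 3148 to 4322 higher (4213 with all) and 1335 to 2651 lower (1963). Deviations from the group means of same-number libraries showed no positive correlation (-0.169, -0.0826 and -0.382). With 3 libraries per group this cannot settle whether the numbers mark shared batches. With the replicate number as a block 600 nearest genes were higher and 278 lower, and over all 13379 tested genes 2810 and 1188. A mean of at least 5 RPKM gave 469 and 295 (33.0% and 20.7% of those tested). Quantile normalization gave 572 higher and 683 lower (21.7% and 25.9%), and TPM 1036 and 366 (39.3% and 13.9%). Over all tested genes the counts moved too. They were 2334 and 1407 of 7366 at 5 RPKM. Of 13379 genes, they were 2657 and 3244 with quantile normalization and 5058 and 1518 with TPM. The cause was not tested for the block and the scalings. Peaks of fold enrichment of at least 4 left 124 and 59, q below 0.1 left 138 and 69, and a limit of 10 kb left 318 and 190, all from fewer genes tested. The share of nearest genes expressed, 37.4%, was 57.2% at 0.1 RPKM, 20.2% at 5 RPKM, 35.7% for fold enrichment of at least 4, 36.2% for q below 0.1 and 35.8% within 10 kb. The peaks' share of all autosomal peaks was 20.6% at fold enrichment of at least 4 and 20.7% at q below 0.1. Alternatives for the share expressed within 5 kb (30.4%) were chosen after seeing the data: 50.8% at 0.1 RPKM (shifted 57.4 to 60.9%), 16.3% at 5 RPKM (20 to 24.3%), 47.4% for protein-coding genes (57.2 to 61.7%) and 35.1% for q below 0.1, which lies inside its shifted range of 32.2 to 47.3%. At fold enrichment of at least 4 it was 29.5% (32.6 to 45.1%). Of 61 called named genes, 54 kept direction and call in every fit they entered, and none changed direction. The AP-1 heptamer share and its alternatives were not run, for want of a genome.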
